A study of Mus musculus with 6 samples.

Results

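In primary osteocyte cultures stimulated to activate the inflammasome, the blood-lineage members *Rac2*, *Myo1f*, *Coro1a*, *Was* and *Rhoh* of 5 cytoskeletal gene families were all higher in the libraries labelled *Gsdmd*-deficient, by 6.07-fold to 14.6-fold in the first 4 and on few counts in *Rhoh*, whereas their widely expressed relatives *Rac1*, *Myo1e*, *Coro1c*, *Wasl* and *Rhoa* moved by 1.49-fold at most. These 10 genes of the 56748 listed were chosen by name, as pairs in which one gene is used mainly by blood cells and the other by most cells. The choice was made with earlier results of these data known. All 10 had enough counts to be tested.

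The cells were prepared from limb bones of C57BL/6 mice aged 7 weeks, with marrow flushed out and bone fragments digested by trypsin, collagenase and EDTA, and were kept in culture for 7 days. The WT group comprised 3 libraries, from mice that the paper's stimulation method names as C57BL/6J. The cKO group comprised 3 libraries from mice described as *Gsdmd* fl/fl with DMP1-Cre, a recombinase driven by the promoter of dentin matrix protein 1, which is active in osteocytes and in late osteoblasts. The parts of the floxed allele, the Cre transgene and the deletion in a difference between the groups cannot be told apart. Both groups received lipopolysaccharide (LPS) at 10 ng/mL for 3 h and then, for 3 h, aluminum hydroxide at 20 µg/mL. Unstimulated cultures were not analysed here, and the labels do not say whether the libraries came from separate mice, so p-values measure the spread between these samples, which may be technical.

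Library totals lay between 39566835 and 49734046 counts. *Gsdmd*, the gene targeted in the cKO mice, held 549 to 699 counts in the WT libraries and 885 to 1045 in the libraries labelled cKO, which goes against that label, since the gene was not lower there. Whether the counts cover the segment to be deleted was not tested, nor was the part in them of cells in which the recombinase is not active. *Xist*, the RNA of the inactive X chromosome, held at most 4 counts in WT and at least 44817 in the libraries labelled cKO, while the Y-linked *Ddx3y* held 4033 to 5455 in WT and 0 in the others, so that sex and genotype cannot be told apart. Of the defining osteocyte genes, *Sost* was at 0 counts in all 6 libraries and *Dmp1* and *Mepe* at no more than 6, while *Pdpn*, also expressed by other stromal cells, averaged 234 counts per 1000000 (CPM) in WT. The cell type named by the labels was therefore seen at most as few counts in its more specific markers.

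The actin cytoskeleton is built from filaments that small GTPases such as Rac and RhoA place and time. Rac proteins act through the WAVE complex and Cdc42 through WASP proteins, and both routes switch on the Arp2/3 complex, which starts new branches. Coronins bind filaments and help to remodel those branches, class I myosins tie filaments to membranes, and RhoA drives contraction. Most cells use Rac1, N-WASP (the product of *Wasl*), coronin 1C, myosin 1e and RhoA, while leukocytes add Rac2, WASP, coronin 1A, myosin 1f and RhoH. Inherited loss of WASP, Rac2, coronin 1A or RhoH impairs human immune cells.

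The coding sequences of each pair are alike enough that the question arises whether reads could be counted on the wrong relative. A stretch around the longest identical coding run of *Rhoh* (plus strand, chr5:66049804-66049893) and *Rhoa* (plus strand, chr9:108204860-108208078, intron removed) is shown as an example, from the least alike of the 5 pairs. It was read from the GENCODE M39 transcripts on GRCm39 in the 5′ to 3′ direction of the transcript, and capitals mark the bases at which the 2 relatives differ.
Rhoh: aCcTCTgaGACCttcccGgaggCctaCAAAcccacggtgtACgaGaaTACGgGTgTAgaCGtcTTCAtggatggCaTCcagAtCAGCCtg
Rhoa: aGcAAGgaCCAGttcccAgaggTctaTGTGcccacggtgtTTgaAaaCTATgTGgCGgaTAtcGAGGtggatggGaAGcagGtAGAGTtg
Within these 90 bases the pair differed at 40 positions. Over the aligned coding bases, identity was 77.9% for *Rac2* and *Rac1*, 71.4% for *Myo1f* and *Myo1e*, 71.5% for *Coro1a* and *Coro1c*, 65.3% for *Was* and *Wasl* and 58.3% for *Rhoh* and *Rhoa*. The longest run of identical bases between the transcripts of a pair was 32 bases, in the myosins, against reads of 150 bp. A read of full length therefore spans differences in every pair.

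*Rac2* encodes the Rac GTPase of blood cells, which also activates the phagocyte NADPH oxidase. Its CPM were 6.31, 6.97 and 7.96 in the 3 WT libraries and 41.8, 44.7 and 42.1 in the 3 libraries labelled cKO, and the groups did not overlap. The mean rose from 7.08 ± 0.83 to 42.9 ± 1.62 (SD, n = 3 each), a log2 fold change of 2.60 (SE 0.088, edgeR adjusted p = 9.65e-14). This and each later adjusted p for a single gene is from the quasi-likelihood test of edgeR, Benjamini-Hochberg adjusted over 17146 genes. The gene lies at chr15:78443367-78456983 in mm39, the build of the deposited coordinates. In bulk RNA, fewer cells of a type and less RNA per cell cannot be told apart, and this holds for each difference given here.

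*Rac1*, the widely expressed Rac (chr5:143489389-143513791), held 349, 350.3 and 332 CPM in WT and 322, 317 and 317 in the libraries labelled cKO. The 2 groups lay close together without overlap. The log2 fold change was -0.11 (SE 0.038, edgeR adjusted p = 0.0303), a small fall that passed the threshold. It no longer passed when the counts were scaled by library size only (-0.09, adjusted p = 0.0862) or when any one library other than WT replicate 3 was left out (adjusted p 0.0555 to 0.098). *Rac1* shares 2309 bases with *Daglb* on the opposite strand, and reads from the 2 genes cannot be told apart there unless the counting used strand, a setting not given in the sources used here.

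*Myo1f*, a long-tailed class I myosin of leukocytes (chr17:33774681-33826738), was the most abundant of the 5 blood-lineage genes. It measured 15.3, 13.9 and 15.6 CPM in WT and 128, 126 and 129 CPM in the libraries labelled cKO, with a wide gap between the groups. This is a log2 fold change of 3.10 (SE 0.057, edgeR adjusted p = 6.28e-17), or 8.56-fold.

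*Myo1e*, its long-tailed relative in many tissues (chr9:70114632-70307048), also rose, but far less. The libraries held 73.6, 69.9 and 83.5 CPM in WT and 108, 112 and 117 CPM under the cKO label. With a log2 fold change of 0.57 (SE 0.060, edgeR adjusted p = 4.68e-07), or 1.49-fold, *Myo1e* had the largest change of the 5 relatives in either direction.

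*Coro1a*, the coronin of hematopoietic cells (chr7:126298945-126306959), had the largest fold change of the 10 genes. Its CPM were 1.53, 1.85 and 1.80 in WT and 26.0, 24.5 and 25.6 in the libraries labelled cKO. The gene was thus scarce in every WT library and at a steady level in the others. Its log2 fold change was 3.87 (SE 0.11, edgeR adjusted p = 1.73e-14), or 14.6-fold, and 0.385% of the tested genes had a higher one. *Coro1a* shares 26 bases with *Bola2* on the opposite strand.

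*Coro1c*, the widely expressed coronin (chr5:113980497-114046819), measured 109, 114 and 116 CPM in WT and 130.0, 139 and 134 CPM in the libraries labelled cKO. Its groups did not overlap either, at a mean 1.19-fold apart. This log2 fold change of 0.25 (SE 0.046) passed the test (edgeR adjusted p = 0.000274).

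*Was* encodes WASP, the activator of Arp2/3 in blood cells, and is X-linked (chrX:7947692-7956737). The WT libraries held 1.49, 1.31 and 2.89 CPM, the third standing above the other two, and the libraries labelled cKO held 16.2, 16.0 and 14.8 CPM. Between the groups the log2 fold change was 3.07 (SE 0.20, edgeR adjusted p = 1.05e-09), and it lay between 2.85 and 3.48 when each library was left out in turn. Since the groups differed in sex, the part of sex in the value of this X-linked gene cannot be told apart from that of genotype.

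*Wasl*, the gene of N-WASP (chr6:24613804-24665008), held 69.2, 65.5 and 56.8 CPM in WT and 59.7, 57.1 and 56.8 CPM in the libraries labelled cKO. Here the groups overlapped, because WT replicate 3 was as low as the libraries labelled cKO. The log2 fold change of -0.14 (SE 0.064) did not pass the test (edgeR adjusted p = 0.0889). It passed without WT replicate 3, at -0.22 (adjusted p = 0.00177).

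*Rhoh*, an atypical small GTPase of blood cells that does not hydrolyze GTP (chr5:66018556-66054043), was barely detected. Its counts were 4, 22 and 6 in WT and 30, 19 and 50 in the libraries labelled cKO, so that the raw counts overlapped, while the CPM, at 0.09, 0.44 and 0.15 against 0.71, 0.48 and 1.10, did not. The log2 fold change of 1.70 (SE 0.58) passed the test (edgeR adjusted p = 0.0262), but this call rested on few reads. It was lost without WT replicate 1, WT replicate 3, cKO replicate 1 or cKO replicate 3 (adjusted p 0.0565 to 0.163), and without WT replicate 2 the log2 fold change was 2.63.

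*Rhoa*, the small GTPase that drives contraction (chr9:108183328-108215133), was the most abundant member by CPM. It measured 363, 363 and 365 CPM in WT and 356, 363 and 358 CPM in the libraries labelled cKO, and the groups overlapped. Its log2 fold change was -0.02 (SE 0.036, edgeR adjusted p = 0.725).

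**Figure D1:**
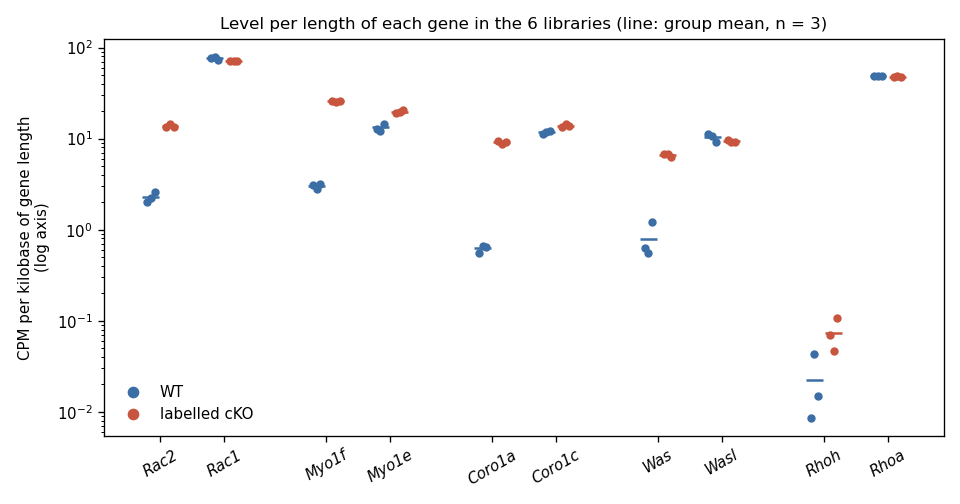
Levels of the 10 genes as CPM per kilobase of gene length (log axis), with a point for each of the 6 libraries and a line at each group mean. In WT every blood-lineage gene lies below its relative, and in the libraries labelled cKO *Myo1f* lies above *Myo1e*.

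Set side by side, all 5 blood-lineage genes passed the test as higher, and 20.1% of the 17146 tested genes did so. By a limit of 2-fold as well, all 5 still passed, against 6.56% of the tested genes. Of the 5 relatives, 2 were higher, 1 was lower (19.2% of the tested genes were lower) and 2 were not called, where 39.3% of the tested genes were called in either direction. With a 2-fold limit, 0 relatives passed. The CPM of the groups did not overlap for any of the 5 blood-lineage genes, all higher (25.3% of the tested genes), nor for 3 relatives, 2 higher and 1 lower (23.9%), beside 49.2% in either direction. The median log2 fold change was 3.07 over the blood-lineage genes and -0.02 over the relatives, beside 0.01 over the tested genes.

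Levels of different genes can be compared only per length. As mean CPM per kilobase of the deposited gene length, the order in WT from high to low was *Rac1* (76.5), *Rhoa* (48.5), *Myo1e* (13.3), *Coro1c* (11.7), *Wasl* (10.4), *Myo1f* (3.00), *Rac2* (2.28), *Was* (0.80), *Coro1a* (0.62) and *Rhoh* (0.02). The 5 relatives thus held the upper places. The single libraries of *Myo1e*, *Coro1c* and *Wasl* lay close together, as did those of *Was* and *Coro1a*, and their order was not tested. In the libraries labelled cKO the blood-lineage levels were 25.7 for *Myo1f*, 13.8 for *Rac2*, 9.12 for *Coro1a*, 6.59 for *Was* and 0.07 for *Rhoh*. *Myo1f* then stood above *Myo1e* (19.7), *Rac2* stood level with *Coro1c* (13.9), and *Coro1a* stood next to *Wasl* (9.39).

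The change can also be read within a pair, where the scaling of a library cancels. For each library the log2 ratio of the counts of the blood-lineage gene to those of its relative was taken with 2 added counts, and the ratio was compared between the groups by a two-sided exact permutation test over 3 against 3 libraries. The smallest p that test can give is 0.1, so no pair could pass a threshold of 0.05.

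The log2 ratio of *Coro1a* to *Coro1c* was -6.11, -5.91 and -5.97 in WT and -2.32, -2.51 and -2.38 in the libraries labelled cKO. This pair had the widest shift of the 5, a difference of 3.59. For *Was* to *Wasl* the ratio was -5.50, -5.60 and -4.28 in WT and -1.88, -1.83 and -1.94 in the others. The spread of the WT libraries came from WT replicate 3, in which *Was* was highest and *Wasl* lowest, and the difference was 3.24 with it and 3.66 without it. For *Rac2* to *Rac1* the ratio was -5.78, -5.64 and -5.38 in WT and -2.95, -2.82 and -2.91 in the others, a difference of 2.71 between tight groups.

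The log2 ratio of *Myo1f* to *Myo1e* was -2.26, -2.33 and -2.42 in WT and 0.24, 0.18 and 0.13 in the libraries labelled cKO. It is the one pair whose ratio crossed 0, and the difference was 2.52. *Rhoh* to *Rhoa* gave -11.39, -9.53 and -10.82 in WT and -8.88, -9.44 and -8.29 in the others, with a difference of 1.72 and a gap between WT replicate 2 and cKO replicate 2 that was narrow beside the spread. In each of the 5 pairs the ratios of the groups did not overlap, and each exact permutation test gave p = 0.1 (adjusted p = 0.1 over the 5 pairs).

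**Figure D2:**
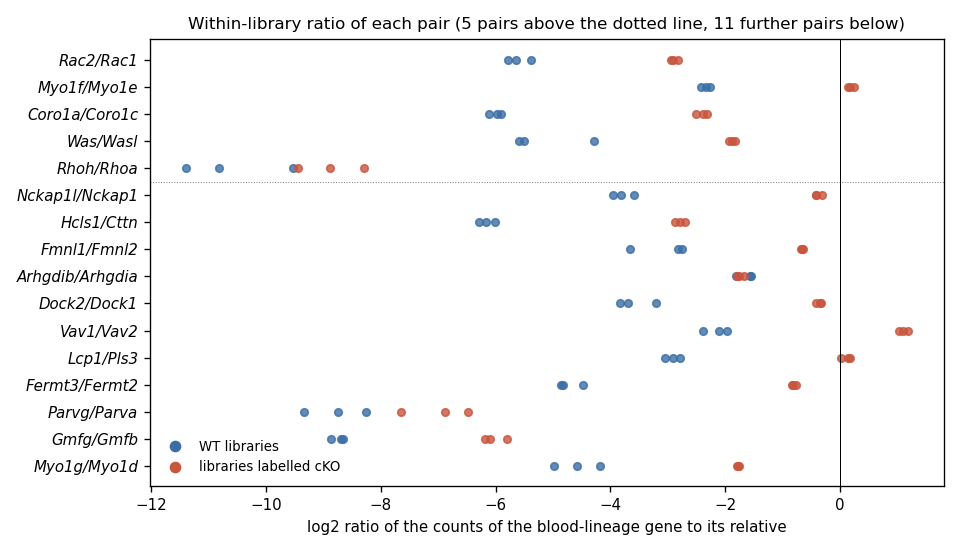
Log2 ratio of the counts of the blood-lineage gene to those of its relative in each library, for the 5 pairs (above the dotted line) and 11 further pairs (below it). A value of 0 marks equal counts, and the libraries labelled cKO lie to the right of the WT libraries in every pair but *Arhgdib*/*Arhgdia*.

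As a share of the pair per length, *Myo1f* made up 18.5% ± 0.79 of the transcripts of *Myo1f* and *Myo1e* in WT and 56.6% ± 0.87 in the libraries labelled cKO (SD, n = 3 each). The share of *Was* in its pair went from 7.27% ± 3.77 to 41.2% ± 0.94, and that of *Coro1a* from 5.04% ± 0.34 to 39.6% ± 1.57. In these 3 pairs the blood-lineage gene was thus a major part of the pair under the cKO label. *Rac2* made up 2.90% ± 0.41 of the Rac pair in WT and 16.3% ± 0.61 in the others, so that *Rac1* remained the larger part. *Rhoh* stayed a trace beside *Rhoa*, at 0.05% and 0.15%.

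**Figure D3:**
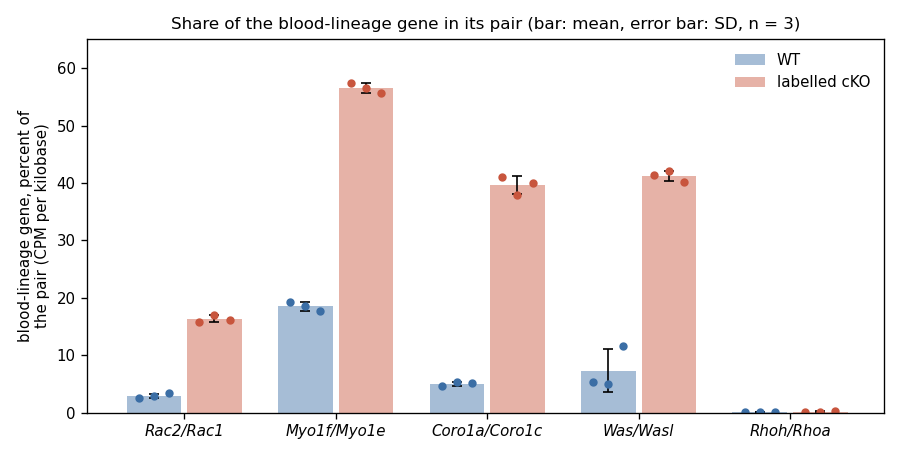
Share of the blood-lineage gene in the summed CPM per kilobase of its pair, in percent, with bars at the mean, error bars of 1 SD (n = 3 libraries) and a point for each library. The shares under the cKO label reach 56.6% for *Myo1f* and stay at 0.15% for *Rhoh*.

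A further 11 pairs of cytoskeletal genes were read in the same way. They too were chosen by name with earlier results of these data known, so they are not independent support. The log2 ratio was higher in every library labelled cKO than in any WT library in 10 of them, by 1.78 for *Parvg* to *Parva* up to 3.92 for *Fermt3* to *Fermt2*, the kindlins that activate integrins in blood cells and in other cells (exact permutation p = 0.1 each, adjusted p = 0.11). The blood-lineage genes of these pairs were called higher in 10 of 11, and their median was 2.89 on the log2 scale. Among them were *Nckap1l*, the WAVE subunit Hem1 (2.93), *Dock2*, a Rac activator of leukocytes (3.00), *Lcp1*, the bundling protein L-plastin (2.97), and *Vav1*, an exchange factor downstream of immune receptors (2.85). Their relatives were called higher in 1 and lower in 6 of 11, with a median of -0.19, beside 20.1% and 19.2% of all tested genes. *Nckap1* (-0.47), *Cttn* (-0.47) and *Fermt2* (-0.92) were lower.

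The exception was *Arhgdib*, a GDP-dissociation inhibitor of small GTPases known from hematopoietic cells. Its mean was 147 CPM in WT and 144 CPM in the libraries labelled cKO, with a log2 fold change of -0.04 (edgeR adjusted p = 0.714). By CPM it was the highest blood-lineage gene of the 11 pairs in WT, before *Lcp1* (40.4 CPM). Its log2 ratio to *Arhgdia* differed by -0.09 between overlapping groups (exact permutation p = 0.4, adjusted p = 0.4). *Arhgdib* shares 18068 bases with *Pde6h* on the opposite strand, which held 124 to 276 counts.

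The families and the pathway around the members moved in both directions. Of 19 other small GTPases related to RhoA and Rac1, 5 were higher, 6 lower and 8 not called, with a median log2 fold change of 0.04. The higher ones were led by *Rhov* (1.82) and *Rhof* (0.83), the lower ones by *Rhou* (-0.73) and *Rhoq* (-0.61). Over all tested genes the shares were 20.1% higher and 19.2% lower.

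Of the other 6 class I myosins, *Myo1g*, a short-tailed myosin of lymphoid and myeloid cells, was higher (2.65), *Myo1c* was slightly lower (-0.13) and 4 were not called. The shares over all tested genes were 20.1% higher and 19.2% lower, so these myosin counts were near the background. Of the other 5 coronins, *Coro2a* (2.53) and *Coro7* (1.22) were higher and 3 were not called. With a 2-fold limit, 1 of these myosins and 2 of these coronins were called higher, beside 6.56% of all tested genes.

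The Arp2/3 complex, on which WASP, N-WASP and WAVE converge, had 5 of 9 subunits higher, 1 lower and 3 not called, beside 20.1% higher and 19.2% lower over all tested genes. The changes were small, with *Actr2* at 0.53, *Arpc3* at 0.50 and *Arpc1a* at -0.19, and the median was 0.16. Of 20 tested WASP partners and WAVE subunits, 8 were higher, 4 lower and 8 not called, with a median of 0.08, and the share of lower genes was near that over all tested genes (19.2%). *Nckap1l* and *Cyfip2* (2.48), WAVE subunits of blood and neural cells, rose, while *Wasf3* (-0.87) and *Nckap1* fell. Of 30 regulators and effectors of these GTPases, 17 were higher, 6 lower and 7 not called, with a median of 0.29. Over all tested genes 20.1% were higher and 19.2% lower, so the lower calls were near the background. *Dock2* and *Arhgap15* (2.98), a GTPase-activating protein for Rac, rose the most, and *Tiam1* (-0.46) and *Vav2* (-0.41), exchange factors of many tissues, were lower. Some genes stand in more than one of these lists, *Nckap1l*, *Dock2*, *Vav1* and *Myo1g* among them, so the counts are not independent.

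**Figure D4:**
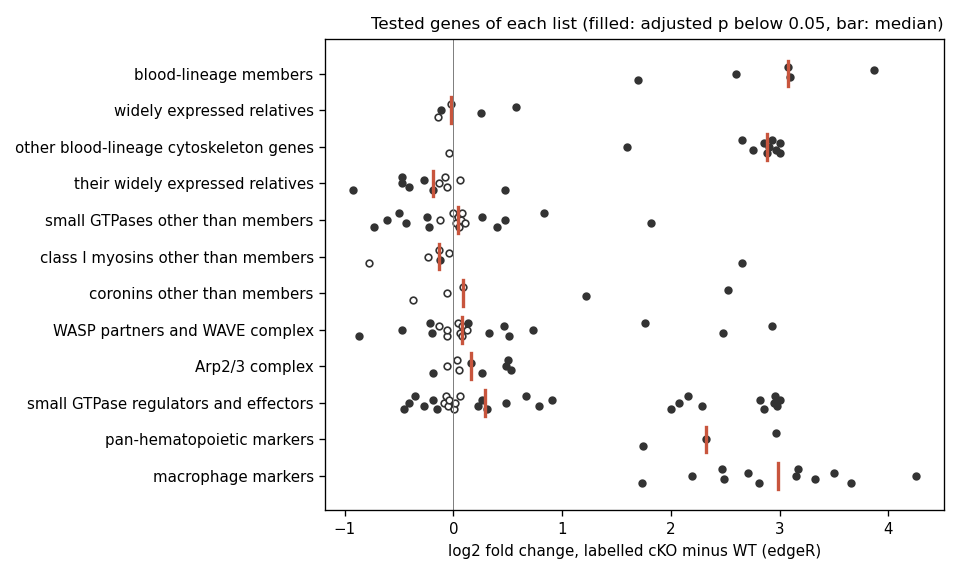
Log2 fold change (libraries labelled cKO minus WT) of every tested gene in the member, family, pathway, blood cell and macrophage lists, filled where the adjusted p was below 0.05, with a bar at the median of the list. The blood-lineage lists and the markers of blood cells and macrophages lie mostly above 1.7, and the other lists plotted have medians from -0.19 to 0.29.

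General markers of blood cells moved with the blood-lineage genes. *Ptprc* (2.97), *Cd53* (1.74) and *Laptm5* (2.33), which most leukocytes express, were all called higher, and their summed CPM lay between 104 and 109 in WT and between 504 and 512 in the libraries labelled cKO. All 12 macrophage markers were called higher, against 20.1% of all tested genes. These markers rose by 1.73 to 4.25 on the log2 scale and by 2.98 in the median. Their summed CPM lay between 1190 and 1340 in WT and between 6260 and 6560 in the others. Markers of other cells moved too, where 20.1% of all tested genes were called higher and 19.2% lower. Of 5 chondrocyte markers 4 were called higher, with *Acan* at 7.36 (2 to 8 counts in WT) and *Comp* at 1.90, while *Col2a1* was lower (-0.84). Of 5 endothelial markers 4 were called lower, with *Emcn* at -5.92 (35 to 59 counts in WT), while *Kdr* was higher (2.04). The endothelial markers were scarce, and their summed CPM lay between 6.41 and 6.84 in WT and between 6.32 and 6.71 in the others. Of the 5 tested osteoblast markers, 3 were called lower, with *Col1a1* at -0.67, and 2 higher, with *Ibsp* at 2.01. Of 5 fibroblast markers, 3 were called higher, with *Lum* at 1.49, and 2 lower, with *Thy1* at -0.60. The part of these cells, or of a different cell makeup, in the differences of the members was not tested.

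Most defining markers of other blood cells were at or near 0 in both groups. The T cell genes *Cd3d*, *Cd3e*, *Cd3g* and *Cd8a* and the B cell gene *Ms4a1* were at 0 counts in all 6 libraries, as was the neutrophil gene *S100a9*. The 7 T cell markers summed to no more than 1.06 CPM, the 5 B cell markers to no more than 0.67 CPM and the 8 neutrophil markers to between 4.64 and 11.2 CPM. The T cell and neutrophil sums were higher in the libraries labelled cKO and the B cell sums lower. The 2 tested neutrophil markers, *S100a8* (1.61) and *Camp* (0.49), were both called higher. Of the 5 tested osteoclast markers, *Acp5* was higher (1.24), *Mmp9* (-2.83) and *Ctsk* (-0.41) were lower and 2 were not called. Beside these neutrophil and osteoclast counts, 20.1% of all tested genes were called higher and 19.2% lower.

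Because these markers moved, each blood-lineage gene was also expressed as a percentage of the summed CPM of *Ptprc*, *Cd53* and *Laptm5*. *Coro1a* was 1.48%, 1.72% and 1.65% of that sum in WT and 5.16%, 4.82% and 5.01% in the libraries labelled cKO, a log2 difference of 1.59. It had the largest shift beyond that of these 3 markers. No member was set against the macrophage markers, whose log2 fold changes had a median of 2.98 and reached 4.25. *Myo1f* was 14.8%, 12.9% and 14.3% in WT and 25.3%, 24.9% and 25.1% in the others, a log2 difference of 0.84. *Was* was 1.44%, 1.22% and 2.65% against 3.22%, 3.16% and 2.89%, a difference of 0.85 with the third WT library close to the other group. *Rac2* was 6.10%, 6.48% and 7.30% against 8.28%, 8.80% and 8.24%, a difference of 0.35, smaller in size than that of the other 3.

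In these 4 genes the percentages did not overlap between the groups (exact permutation p = 0.1, the smallest possible, adjusted p = 0.125 over the 5 genes). *Rhoh* overlapped, with a log2 difference of -0.55 (exact permutation p = 0.5, adjusted p = 0.5). Both the size and the direction of the shift depended on the marker. Against *Ptprc* alone, an alternative chosen after seeing the data, the difference for *Rac2* was -0.37, *Myo1f* (0.12) and *Was* (0.14) overlapped between the groups, and *Coro1a* differed by 0.87 without overlap. Against *Cd53* alone the differences of these 4 genes ran from 0.85 to 2.10, and against *Laptm5* alone from 0.27 to 1.52. *Rhoh* differed by -1.27 without overlap against *Ptprc* alone. It overlapped against *Cd53* alone (-0.05) and *Laptm5* alone (-0.63).

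**Figure D5:**
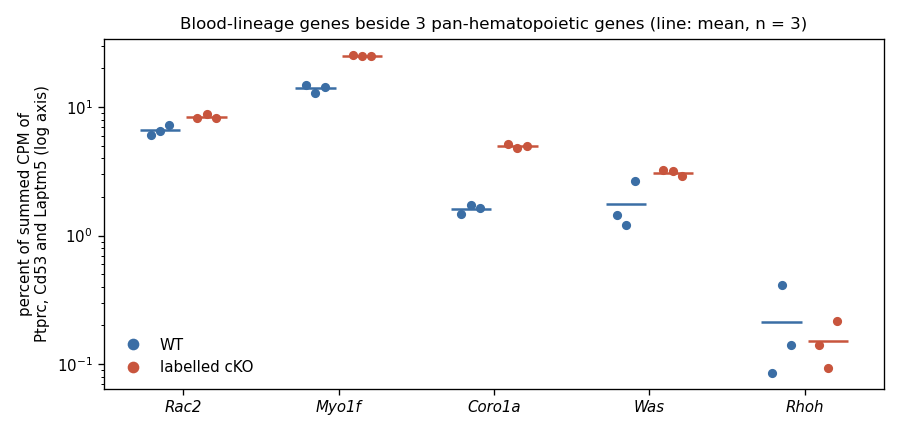
Each blood-lineage gene as a percentage of the summed CPM of *Ptprc*, *Cd53* and *Laptm5* (log axis), with a point for each library and a line at the mean of 3. The groups lie apart for *Rac2*, *Myo1f*, *Coro1a* and *Was* and overlap for *Rhoh*.

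The genes whose profile over the 6 libraries was most like that of a member were found by the distance between centred log2 CPM among the 17146 tested genes. For *Rac2* they were *Cfp*, the complement regulator properdin (distance 0.0846), *Arap3* (0.119) and *Selplg*, a ligand of selectins on leukocytes (0.137). For *Myo1f* they were *Sema4d* (0.16), *Csf1r*, the receptor that macrophages need for survival (0.181), and *Ctsc* (0.218). For *Coro1a* they included *Ms4a7* (0.212) and *Ncf4*, a subunit of the phagocyte NADPH oxidase (0.222). The nearest genes of *Was* were *Gm26740* (0.352), *Kcnk13* (0.373) and *Blnk* (0.383). *Rhoh* had no close match, and its nearest genes *Gm43050*, *Gm45205* and *Gm4951* stood at 0.735 to 0.789. With 2 groups of 3 libraries, a gene with a group difference of like size is near in this measure.

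Promoter windows of 300 bases, from 250 before to 50 after a transcript start, were found in RefSeq (GRCm38.p6) for *Myo1f*, *Coro1a*, *Was* and *Rhoh* and for *Myo1e*, *Coro1c*, *Wasl* and *Rhoa*. The windows of *Was* (minus strand, chrX:8090442-8090741) and *Wasl* (minus strand, chr6:24664946-24665245) are shown because they show the contrast in CpG content between a blood-lineage gene and its relative. They are written 5′ to 3′ along the gene, and capitals mark each CpG.
Was: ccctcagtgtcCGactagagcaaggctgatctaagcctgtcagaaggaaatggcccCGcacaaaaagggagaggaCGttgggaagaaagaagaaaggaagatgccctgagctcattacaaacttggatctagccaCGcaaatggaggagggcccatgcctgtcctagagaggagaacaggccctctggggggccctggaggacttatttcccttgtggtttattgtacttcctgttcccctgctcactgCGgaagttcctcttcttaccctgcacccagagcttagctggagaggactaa
Wasl: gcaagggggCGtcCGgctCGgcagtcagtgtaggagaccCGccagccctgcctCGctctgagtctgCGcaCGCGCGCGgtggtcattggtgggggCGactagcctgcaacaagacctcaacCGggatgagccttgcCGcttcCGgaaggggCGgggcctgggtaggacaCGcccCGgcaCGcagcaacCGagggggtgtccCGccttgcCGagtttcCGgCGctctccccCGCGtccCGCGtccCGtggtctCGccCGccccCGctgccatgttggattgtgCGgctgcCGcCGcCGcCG
The *Was* window holds 5 CpG and the *Wasl* window 36. The other blood-lineage windows hold 5 in *Myo1f*, 19 and 10 in the windows of *Coro1a* and 9 in *Rhoh*, and the other windows of relatives hold 16 in *Myo1e*, 42 in *Coro1c* and 21 and 38 in those of *Rhoa*. The median of 32851 windows is 7. The relatives thus lie above that median in every window, and the blood-lineage genes lie on both sides of it, with *Coro1a* overlapping the relatives. The letters GAGGAA, the core bound by the myeloid factor PU.1, were searched on both strands (TTCCTC on the other) and occur in the windows of *Myo1f* and *Was* and in 1 of those of *Rhoa*, beside 28.3% of all windows. The longer GAGGAAG, which contains the shorter one, occurs in the same *Rhoa* window and in 13.6% of all windows.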

How the data were processed

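RNA sequencing of 6 libraries, 3 WT and 3 labelled cKO, was analysed. Paired-end reads of 150 bp from a directional kit were trimmed by the authors and aligned with HISAT2 (mm39), and featureCounts gave the raw counts, which the authors deposited without normalization beside a gene length in bases. The submitters' processing notes name HISAT2 2.0.5, and the strand setting is not given in the sources used here. Library totals of 39566835 to 49734046 counts set the precision, and intervals and errors do not allow for PCR duplicates, since no molecular identifiers were used.

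From the deposited counts, edgeR 4.0.16 (R 4.3.3) gave log2 fold changes and p-values (filterByExpr, TMM, glmQLFit, glmQLFTest, genotype as the only term) and adjusted by the Benjamini-Hochberg method over 17146 genes. A gene was called at an adjusted p below 0.05. The standard error was taken as the log2 fold change divided by the square root of the F statistic. CPM use the TMM-scaled library size, and CPM per kilobase divide them by the deposited length. Log2 ratios of pairs used a prior count of 2. The steps were tested on simulated data in which far fewer genes changed than were called here. That simulation therefore does not show how they perform under a change this widespread. The biological coefficient of variation was 8.36%, and replicates of a group differed by more than sampling noise (chi-square per gene 4.88 to 13.9), so all 6 were counted separately.

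The members, lists and tests were chosen with earlier results of these data known. The genes named were the 10 members, the 3 nearest genes of each blood-lineage member (1 of them is not reported here), the called genes of each list with the 2 largest positive and the 2 largest negative changes, genes of the 11 further pairs, markers, and checks of the labels. Alternatives were DESeq2 1.42.0, limma-voom (limma 3.58.1), other scalings, filters and prior counts, a 2-fold limit, halved counts, replicate number as a block and each library left out. The counts over lists were rerun under every alternative after the data had been seen. Of the gene set, single-cell and blot data of the study, nothing was used here.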

Additional observations from a re-analysis of the deposited data

How the results depend on the processing

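With a limit of 2-fold, 1124 genes were called higher and 796 lower in place of 3445 and 3285. With library size as the only scaling, *Rac1* was at -0.088 (edgeR adjusted p = 0.0862) and *Rhoa* turned from -0.02 to 0.0029 (adjusted p = 0.959), while scaling cancels within pairs. The ratio of *Gmfg* to *Gmfb* differed by 2.53 with a prior count of 5, against 2.71. Leaving out each library in turn gave 2942 to 3407 higher and 2796 to 3375 lower genes, log2 fold changes of 2.51 to 2.68 for *Rac2*, 3.04 to 3.13 for *Myo1f*, 3.78 to 3.92 for *Coro1a*, 2.85 to 3.48 for *Was*, 1.31 to 2.63 for *Rhoh*, -0.14 to -0.11 for *Rac1*, 0.51 to 0.64 for *Myo1e*, 0.21 to 0.27 for *Coro1c*, -0.22 to -0.10 for *Wasl* and -0.03 to -0.01 for *Rhoa*, and pair differences of 1.31 to 3.66. The 1 lower call among the 5 relatives became 2 without WT replicate 3 and 0 when any one of the other libraries was left out. The 1 among the other class I myosins became 2 without WT replicate 2 or WT replicate 3, and without cKO replicate 3 that count and the 1 in the Arp2/3 complex were 0. Set against *Ptprc* alone in place of the 3 marker genes, the log2 difference was -0.37 for *Rac2*, 0.12 for *Myo1f*, 0.87 for *Coro1a* and 0.14 for *Was*, and against *Cd53* alone it was 0.85 for *Rac2*, 1.35 for *Myo1f* and 2.10 for *Coro1a*, an alternative chosen after seeing the data. *Rhoh* differed by -1.27 against *Ptprc* alone. It has no log2 fold change when at least 10 counts are required in every library.

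Libraries with the same replicate number did not deviate together (correlation -0.0103 to 0.00228), so no pairing by number was seen. The correlation cannot show whether samples were prepared as pairs. With replicate number as a block, 3298 genes were higher and 3098 lower, no member changed its call, *Rac2* was at 2.60, *Rhoh* at 1.81 (adjusted p = 0.0419) and *Rac1* at -0.11 (adjusted p = 0.0456).

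The limits are few libraries, the small counts of *Rhoh*, sex and genotype that cannot be told apart, *Gsdmd* counts that go against the label, and gene lengths that stand for all transcripts of a gene when levels are compared. An excess of even numbers among small counts is what counting both mates of a pair would give, and halving all counts changed no member's call.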
